A study of Arabidopsis thaliana with 8 samples.

Results

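Expansins are small secreted proteins of the plant cell wall that let wall polymers slide past each other under turgor, without cutting them, and they act best in an acid wall. Alpha-expansins (EXPA) are the classical agents of acid-induced wall loosening, beta-expansins (EXPB) are related to the group 1 allergens of grass pollen, and the expansin-like proteins of types A and B (EXLA, EXLB) share the fold but have no established loosening activity. Cell elongation in the embryo and weakening of the surrounding endosperm, both of which need wall loosening, precede emergence of the radicle from the seed.

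The expansin family was taken as every probe set whose single gene symbol in the platform's probe table begins with EXPA, EXPB, EXLA or EXLB followed by a number. This gave 18 probe sets for 18 genes, out of 13513 probe sets of a single named gene. They stand for 10 alpha-expansins, 4 beta-expansins, 3 expansin-like A genes and 1 expansin-like B gene. All 18 matched a locus in the RefSeq gene table. The names cover part of the family only: that table names 38 expansin or expansin-like genes. Those without a probe set of a single named gene were not tested here, and those that share a probe set are described only in a closing section. The 18 were chosen by name and not by their signals.

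The seed was of Arabidopsis thaliana Col-0, and all 8 samples carry the same stock code. Each of 4 groups had 2 arrays. Of the groups soaked for 24 h, one had water alone, one water with 3 µM abscisic acid (ABA, the hormone that holds back germination) and one water with 30 µM ABA. The fourth was dry seed, which was not soaked. The arrays of a group are called replicates A and B after the letters in their titles. Titles number the pair at 3 µM ABA 3 and 5, whereas each other pair shares one number. As no label speaks of separate seed batches, the spread behind the p-values may be technical.

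The values were signals on a linear scale, 1 for each probe set and array, scaled by the authors to a common trimmed mean. Median signals were 30.9 to 33.8 on the imbibed arrays and 21.0 and 21.4 on the dry arrays. The ratio of 3' to 5' signal in control transcripts, a sign of RNA quality, differed between imbibed and dry seed in 2 of 6 control pairs: for GAPDH it was 0.371 to 0.927 against 1.69 and 1.81, and for actin 2.30 to 3.80 against 4.34 and 4.52. A second control pair for each of these genes overlapped between imbibed and dry seed. There GAPDH had 0.884 to 1.31 against 1.11 and 0.892, and actin 1.01 to 1.27 against 1.05 and 0.895. The part of this ratio in the changes below was not tested. Of the markers of seed identity, the cruciferin-type storage protein gene AT1G03890 had 2056 and 1919 on the dry arrays, and 3 oleosin genes had 618 to 3618 there. UND, the 1 gene listed as a marker of other cells or stages that had a named probe set, had 1.66 to 11.4 over all arrays. In whole seed, a change in the number of cells of a type and a change in RNA per cell cannot be told apart.

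The first comparison asks which expansin transcripts changed while seed took up water. EXPA9 and EXPA8 changed most, with signals of 800.1 to 1537 on the imbibed arrays and of 6.33 to 10.4 on the dry arrays. EXPA15 and EXPA20 followed, with smaller rises in EXPA4 and the beta-expansin EXPB1 and a weak one in EXPA18. The expansin-like gene EXLA1 went the other way. The remaining 10 genes had signals under 20 on all 8 arrays.

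EXPA9 (AT5G02260) had signals of 1537 and 1119 with water alone, 1156 and 1015 at 3 µM ABA, 1071 and 1062 at 30 µM ABA, against 10.4 and 8.14 in dry seed. All 6 imbibed arrays were far above both dry arrays, and those of the ABA groups lay within or just below the water values. The log2 change in water minus dry seed was 6.64 ± 0.19 (SE, n = 2 arrays a group; limma adjusted p = 7.34e-09).

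EXPA8 (AT2G40610) had 1011 and 1017 with water alone, 1149 and 800.1 at 3 µM ABA, 1021 and 906 at 30 µM ABA, against 8.64 and 6.33 in dry seed. Imbibed and dry arrays did not overlap, while the 3 imbibed groups did. Its log2 change in water was 6.48 ± 0.20 (SE; limma adjusted p = 8.93e-09). Changes here are on the scale of log2(signal + 3.99), and for genes that are dim in dry seed their size depends on the amount added. For EXPA9 the change was 7.01 with 1 added and 5.72 with 16 added, and for EXPA8 6.92 and 5.46. No background level is known for the dry signals of these genes, nor for those of EXPA20, EXPA4 and EXPB1, so the direction is firmer than the size.

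EXPA15 (AT2G03090) had 420.4 and 231 with water alone, 376 and 282 at 3 µM ABA, 413 and 319 at 30 µM ABA, against 31.4 and 20.9 in dry seed. The water replicates bracketed all 4 ABA arrays, and every imbibed array was above both dry ones. Its log2 change in water was 3.41 ± 0.29 (SE; limma adjusted p = 3.02e-06).

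EXPA20 (AT4G38210) had 256 and 209.6 with water alone, 252 and 206 at 3 µM ABA, 232 and 230.0 at 30 µM ABA, against 17.7 and 13.8 in dry seed. The imbibed groups overlapped one another. The log2 change in water was 3.59 ± 0.19 (SE; limma adjusted p = 1.32e-07).

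EXPA4 (AT2G39700) had 44.3 and 46.3 with water alone, 36.6 and 53.1 at 3 µM ABA, 59.8 and 61.1 at 30 µM ABA, against 9.54 and 8.24 in dry seed. Both arrays in 30 µM ABA were the highest of the 8. Its log2 change in water was 1.94 ± 0.23 (SE; limma adjusted p = 3.22e-05).

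EXPB1 (AT2G20750), the 1 beta-expansin that rose, had 52.3 and 41.1 with water alone, 53.3 and 42.8 at 3 µM ABA, 36.3 and 36.2 at 30 µM ABA, against 7.85 and 15.0 in dry seed. Both arrays in 30 µM ABA were the lowest of the imbibed ones and above both dry ones. The log2 change in water was 1.75 ± 0.27 (SE; limma adjusted p = 0.000217).

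EXPA18 (AT1G62980), known from root hairs together with EXPA7, was dim throughout. It had 11.7 and 8.49 with water alone, 13.2 and 13.0 at 3 µM ABA, 10.2 and 8.14 at 30 µM ABA, against 1.18 and 4.86 in dry seed. The imbibed arrays did not overlap with the dry arrays. Its log2 change in water was 1.05 ± 0.36 (SE; limma adjusted p = 0.0247). The call was lost without water replicate A (change 0.88, adjusted p = 0.131) and without dry replicate A (change 0.66, adjusted p = 0.148), and the change was 0.46 with 16 added to the signals.

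EXLA1 (AT3G45970) was the 1 gene called lower in water among the expansins that passed the filter on low values. Its signals were 57.9 and 84.9 with water alone, 50.5 and 76.3 at 3 µM ABA, 42.8 and 88.5 at 30 µM ABA, against 349 and 166 in dry seed. The dry replicates lay far apart, and both were above all 6 imbibed arrays. The log2 change in water was -1.72 ± 0.40 (SE; limma adjusted p = 0.00297). It was -0.85 when arrays were scaled to their spike-in controls.

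**Figure D1:**
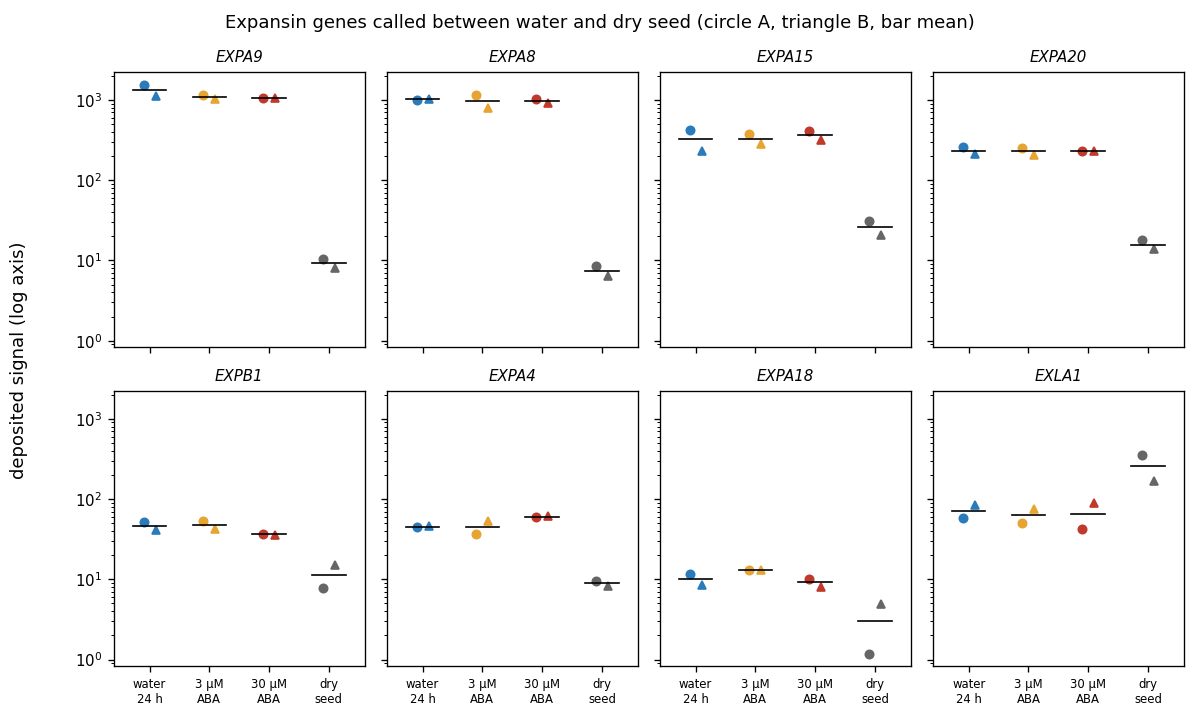
Deposited signal (log axis) of the 8 expansin genes called between water and dry seed, for seed in water, 3 µM ABA, 30 µM ABA and dry seed; circles are replicate A, triangles replicate B, and bars the group mean. In 7 genes all 6 imbibed arrays lie above both dry arrays, in EXLA1 they lie below, and the imbibed groups lie close together. The genes shown were picked by their call between water and dry seed. Of all probe sets in the fit, 81.8% had water and dry arrays that did not overlap.

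Counted over the family, 11 of the 18 probe sets passed the filter on low values (mean log2 signal above the 30th percentile of all probe sets), and 8 of these 11 were called between water and dry seed. The share called was 66.0% over the 15922 probe sets in the fit, with 37.5% higher and 28.5% lower in water. The expansin calls were 7 higher and 1 lower. All 6 alpha-expansins that passed the filter rose, as did 1 of 4 beta-expansins. The median log2 change of the 11 was 1.75, against 0.15 over all probe sets tested. Of the 11, EXPA8 and EXPA18 passed the filter through their level in imbibed seed, and the mean of the other 9 was above it in dry seed too. These counts describe the probe sets that passed and not the family as a whole.

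**Figure D2:**
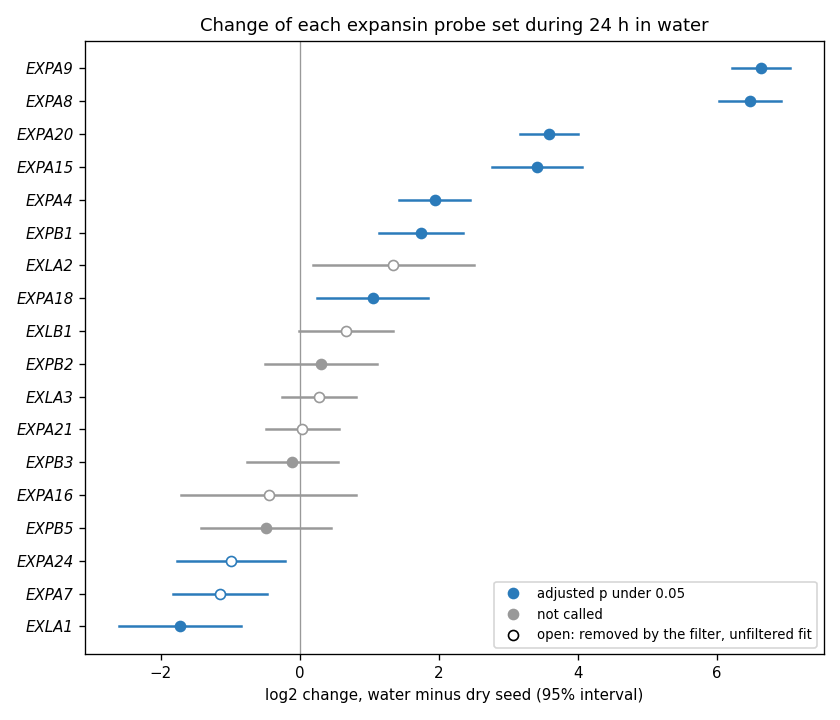
Log2 change of all 18 expansin probe sets in water minus dry seed, with 95% intervals; blue marks an adjusted p under 0.05, and open points are the 7 probe sets removed by the filter, taken from a fit without it. The changes run between 6.64 for EXPA9 and -1.72 for EXLA1, and the EXPA9 and EXPA8 intervals overlap no other gene's.

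Other scalings of the arrays moved the size of the changes. Over all probe sets the median change was 0.15 as deposited. It was -0.03 under quantile normalization, -0.37 when arrays were set to one median, and 0.93 when they were set to their spike-in controls. EXPA9 changed by 6.19 to 7.29 and EXPA8 by 6.05 to 7.10 over these 4 scalings. EXPA20 changed by 3.10 to 4.31, EXPA15 by 2.90 to 4.20, EXPA4 by 1.50 to 2.57 and EXPB1 by 1.30 to 2.42. Each of these 6 genes was called higher under the first 3 scalings. Calls under spike-in scaling are not used, because its fit took every variance from the trend alone. Spike-in controls had a geometric mean signal of 128 to 247 on the imbibed arrays and of 339 and 363 on the dry arrays. How their amount was set is not given in the sources used here.

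**Figure D3:**
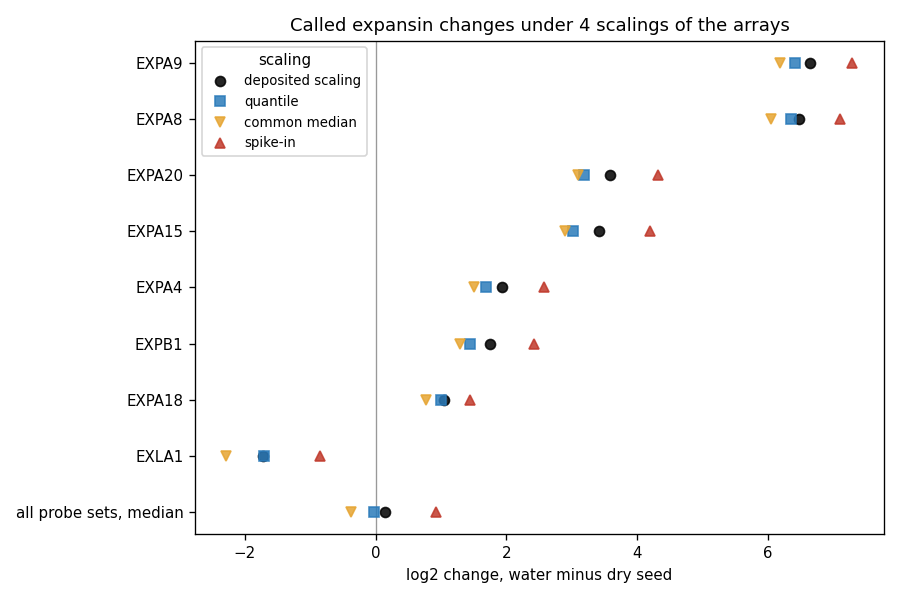
Log2 change in water minus dry seed for the 8 called expansin genes and the median of all 15922 probe sets, for values as deposited, quantile-normalized, set to one median or set to the spike-in controls. Spike-in scaling shifts every change upwards, and no gene crosses 0.

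In seed kept in ABA the same contrast with dry seed gave nearly the same changes; all of these comparisons share the dry arrays. In 3 µM ABA minus dry seed, 7 expansins were higher and 1 lower, against 64.6% of all probe sets called (37.9% higher, 26.7% lower). In 30 µM ABA minus dry seed the count was again 7 higher and 1 lower, against 62.8% called (36.7% higher, 26.0% lower). EXPA9 changed by 6.36 in 3 µM ABA and 6.34 in 30 µM ABA, and EXPA8 by 6.40 at both doses (limma, SE 0.19 and 0.20). EXLA1 changed by -1.89 and -1.90. EXPA18 was called in 30 µM ABA (log2 change 0.95, limma adjusted p = 0.0386), but that call was lost under 13 alternative settings.

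The next comparison asks whether ABA altered expansin transcripts at 24 h. In 30 µM ABA minus water, limma called 0 of the 11 expansins tested, against 0.452% of all probe sets (0.415% higher, 0.0377% lower). The number with an unadjusted p under 0.05 was also 0, against 8.48% of all probe sets, so a count of 0 among 11 is close to the background. The lowest unadjusted p was 0.125. In 3 µM ABA minus water the count was 0 of 11, where 0% of all probe sets were called, with 0 at an unadjusted p under 0.05, against 3.99% of all, and a lowest unadjusted p of 0.061. With the mean of both doses set against water the count was again 0, against 0.0126% of all probe sets, and the lowest unadjusted p was 0.0779. Between 30 µM and 3 µM ABA it was 0 as well, where 0% of all were called.

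The intervals say how large an ABA effect these arrays leave room for. For EXPA8 the log2 change in 30 µM ABA minus water was -0.08, with a 95% interval of -0.52 to 0.37. For EXPA9 it was -0.30, with an interval of -0.72 to 0.12. EXPA20 changed by -0.0048 (-0.42 to 0.41) and EXPA15 by 0.22 (-0.43 to 0.86). Those 4 intervals are narrow beside the changes of 3.41 to 6.64 during imbibition in water. The spread behind them may be technical, so they need not cover differences between seed batches.

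EXPA4 and EXPB1 lay at opposite ends among the genes that rose. EXPA4 had 60.5 ± 0.942 in 30 µM ABA against 45.3 ± 1.42 in water (SD, n = 2 each), a log2 change of 0.39 with an interval of -0.13 to 0.90 (limma adjusted p = 0.744). EXPB1 had 36.2 ± 0.0899 in 30 µM ABA against 46.7 ± 7.93 in water, a change of -0.33 with an interval of -0.93 to 0.28 (limma adjusted p = 0.870). Neither was called, although the arrays of the 2 groups did not overlap. At 3 µM both genes overlapped with water, with changes of -0.04 for EXPA4 and 0.04 for EXPB1.

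Groups without overlap are common here. In 30 µM ABA and water, 5 of the 11 expansins had arrays that did not overlap, against 41.5% of all probe sets. EXPA4, EXPB3 and EXPB5 were above water on both arrays, and EXPA9 and EXPB1 below. In 3 µM ABA and water it was 3 of 11, all above water (EXPA18, EXPB3 and EXPB5), against 30.0% of all probe sets. Between 30 µM and 3 µM ABA it was 4 of 11, against 32.7%, with EXPA4 higher and EXPA18, EXPB1 and EXPB3 lower at 30 µM. In water and dry seed it was 8 of 11, against 81.8%.

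**Figure D4:**
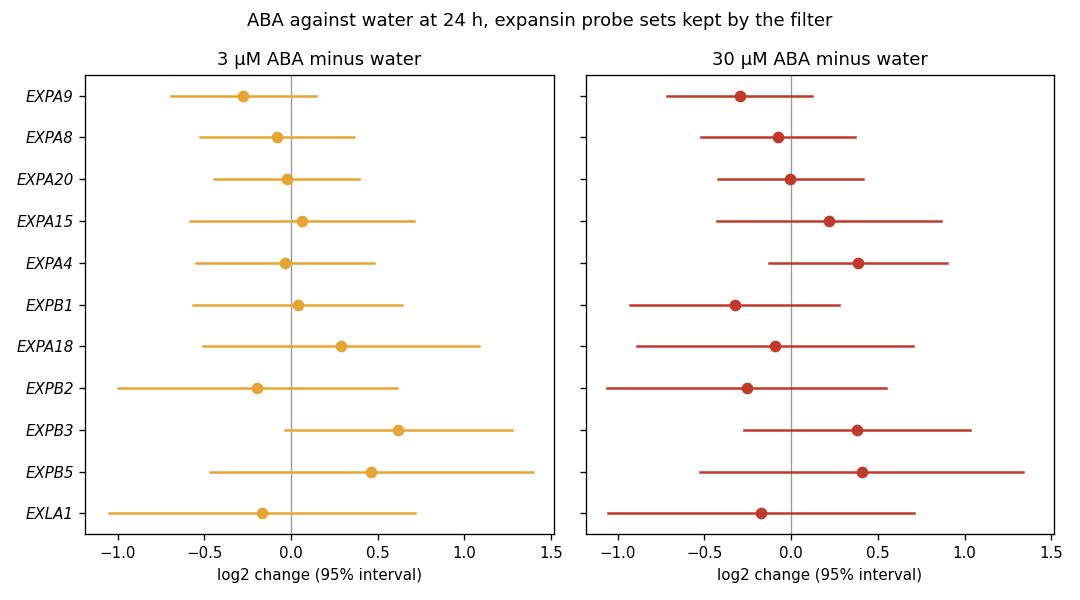
Log2 change of the 11 expansin probe sets kept by the filter, in 3 µM ABA minus water (left) and 30 µM ABA minus water (right), with 95% intervals. All intervals include 0, and for the 6 genes that rose most in water they lie between -0.93 and 0.90.

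Of the seed markers on the same arrays, 1 of 3 oleosin genes and the 1 cruciferin-type gene were called higher in 30 µM ABA than in water. Over all probe sets 0.415% were called higher. The oleosin gene AT3G18570 had 214 and 205 in 30 µM ABA against 44.2 and 38.2 in water, a log2 change of 2.25 (limma adjusted p = 0.00389). The cruciferin-type gene AT1G03890 had 73.0 and 65.2 in 30 µM ABA against 29.6 and 27.9 in water, a change of 1.16 (adjusted p = 0.0294). The other oleosin genes, OLEO3 and AT3G01570, changed by 0.92 (adjusted p = 0.145) and 0.81 (adjusted p = 0.533) and were not called. Whether the expansins differed from these genes in their response to ABA was not tested.

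The dim members fall into those that passed the filter and those that did not. The beta-expansins EXPB2, EXPB3 and EXPB5 passed and were not called between water and dry seed. EXPB2 had 10.1 and 17.5 with water alone, 11.9 and 10.5 at 3 µM ABA, 15.2 and 7.06 at 30 µM ABA, against 11.6 and 8.62 in dry seed. Its groups all overlapped, and its change in water was 0.31 (95% interval -0.50 to 1.12). EXPB5 had 5.23 and 6.91 with water alone, 7.30 and 12.9 at 3 µM ABA, 12.1 and 6.96 at 30 µM ABA, against 16.1 and 5.84 in dry seed. The dry replicates of EXPB5 enclosed all the other arrays but 1, and its change in water was -0.49 (-1.42 to 0.44).

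EXPB3 had 7.61 and 7.54 with water alone, 15.0 and 12.6 at 3 µM ABA, 11.3 and 10.8 at 30 µM ABA, against 9.64 and 7.39 in dry seed. All 4 ABA arrays were above the water and dry arrays. The log2 change was 0.62 in 3 µM ABA minus water (interval -0.03 to 1.27, limma adjusted p = 0.999) and 0.38 in 30 µM ABA minus water (-0.27 to 1.03, adjusted p = 0.847).

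The 7 members below the filter had signals between 0.247 and 12.4. No detection calls were used here, so it is not known which of these signals lie above background. EXPA7, the other root hair expansin, had 0.707 and 1.70 with water alone, 5.59 and 6.40 at 3 µM ABA, 3.86 and 2.91 at 30 µM ABA, against 9.90 and 5.52 in dry seed. EXPA24 had 1.05 and 2.89 with water alone, 5.43 and 8.69 at 3 µM ABA, 5.94 and 8.04 at 30 µM ABA, against 10.3 and 5.50 in dry seed. In both genes the water arrays were the lowest of the 8.

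In a fit without the filter EXPA7 and EXPA24 were lower in water. Their log2 changes against dry seed were -1.15 (limma adjusted p = 0.0105) and -0.99 (adjusted p = 0.0409). The share of 66.0% called over all probe sets belongs to the filtered fit and is no background for these calls. Neither gene was called between ABA and water. In 3 µM ABA minus water EXPA7 changed by 0.95 (adjusted p = 0.979), and in both ABA doses minus water EXPA24 changed by 0.89 (adjusted p = 0.584).

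EXLA2 had 5.06 and 12.4 with water alone, 7.38 and 3.75 at 3 µM ABA, 1.20 and 11.5 at 30 µM ABA, against 0.805 and 0.824 in dry seed. All imbibed arrays were above the dry ones, but replicates differed widely in the imbibed groups, and the change of 1.34 in water was not called (adjusted p = 0.0574 without the filter). EXLB1 had 10.3 and 6.31 with water alone, 7.98 and 7.70 at 3 µM ABA, 4.59 and 4.39 at 30 µM ABA, against 3.87 and 3.46 in dry seed. Its 4 groups overlapped only between water and 3 µM ABA, and neither the change of 0.66 in water minus dry seed (adjusted p = 0.098) nor that of -0.52 in 30 µM ABA minus water (adjusted p = 0.824) was called.

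EXPA16 had 9.32 and 2.98 with water alone, 6.32 and 11.7 at 3 µM ABA, 0.565 and 10.8 at 30 µM ABA, against 10.5 and 7.95 in dry seed, with all groups overlapping. EXPA21 had 0.874 and 0.526 with water alone, 0.734 and 1.07 at 3 µM ABA, 2.06 and 0.407 at 30 µM ABA, against 0.632 and 0.548 in dry seed. EXLA3 had 0.385 and 2.38 with water alone, 0.387 and 0.369 at 3 µM ABA, 0.379 and 0.247 at 30 µM ABA, against 0.269 and 0.466 in dry seed. Both stayed near the bottom of the signal range on every array. EXLA3 is the direct neighbour of EXLA1 in the RefSeq gene order. EXPA21 and EXPA24 are the ends of a run of 6 adjacent alpha-expansin genes, the others being EXPA22, EXPA23, EXP26 and EXPA25.

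**Figure D5:**
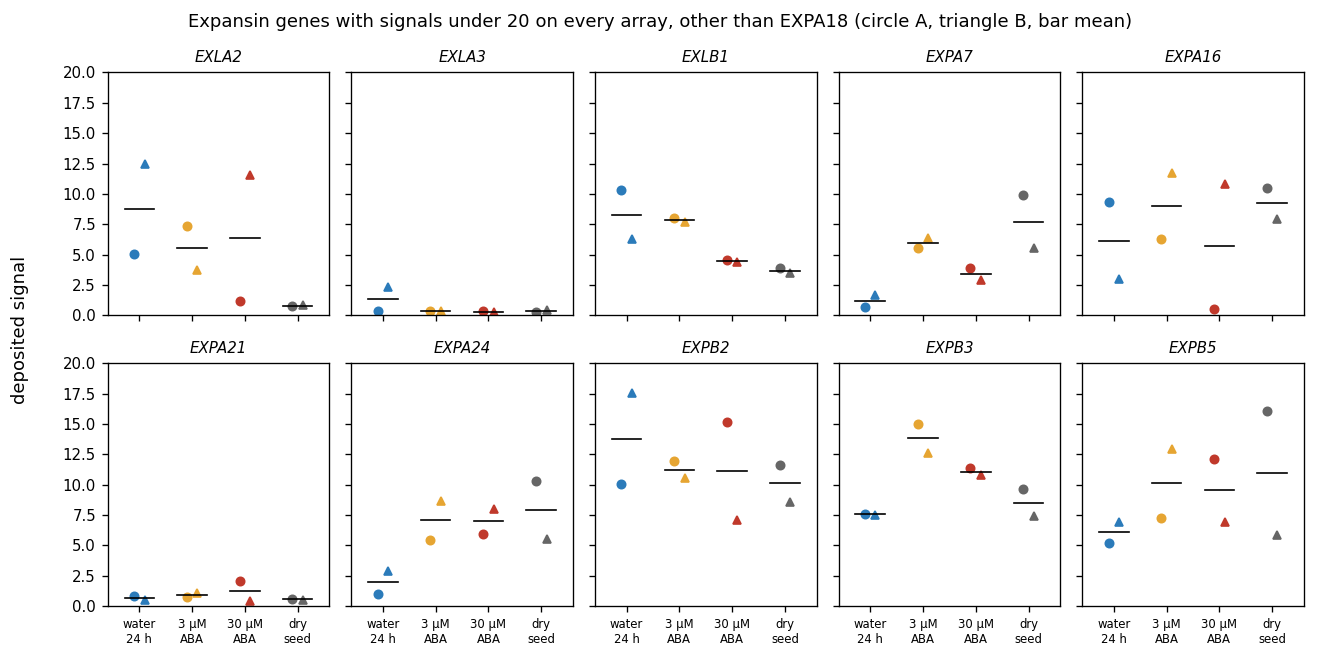
Deposited signal (linear axis, 0 to 20) of the 10 expansin genes other than EXPA18 with signals under 20 on all 8 arrays, by group, with circles for replicate A, triangles for replicate B and bars for the group mean. Replicates often differ by as much as groups do; EXPA7 and EXPA24 are lowest in water, and EXPB3 is higher in both ABA groups than in water.

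The members that rose also differed in how alike their profiles were. Likeness was measured as the Euclidean distance between log2 profiles over the 8 arrays, each centred on its own mean, so it reflects mostly the size of the difference between dry and imbibed seed. EXPA8 and EXPA9 were 0.488 apart, closer to each other than either was to any of 8887 other probe sets of a single gene. EXPA15 and EXPA20 were 0.560 apart, and EXPA18 and EXPB1 0.762. EXPA8 and EXPA9 were each at least 3.50 from every other called expansin.

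Outside the family, the nearest profiles to EXPA9 were those of AT5G45650 (distance 0.586), the serine carboxypeptidase-like gene scpl44 (0.632) and AT3G48140 (0.651). For EXPA8 they were AT5G45650 (0.621), scpl44 (0.652) and AT3G05910 (0.658). EXPA20 lay nearest to AT2G40010 (0.358), AT2G42660 and AT4G30020, and EXPA15 to AT1G25520 (0.596), AT4G30020 and AT5G02180. EXPB1 lay nearest to PFI (0.299), the gene of tubulin-folding cofactor E, then AT5G63150 and cICDH, for cytosolic isocitrate dehydrogenase. EXPA4 lay nearest to AT3G47010 (0.476), AT4G11120 and AT1G07210, EXPA18 to AT1G67510 (0.214), AT3G12860 and AT3G58470, and EXLA1 to AT5G11970 (0.573), AT1G23440 and AT3G11930. All of these pairs had Pearson's r of 0.960 or above over the 8 arrays, which share the split into dry and imbibed seed.

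Genes of other wall proteins give a setting for these changes. Xyloglucan endotransglucosylase/hydrolases (XTH) cut and rejoin the xyloglucan tethers of the wall. Of 10 XTH probe sets, 6 passed the filter, and 5 were higher and 0 lower in water than in dry seed, with a median log2 change of 3.57. Over all probe sets 37.5% were higher and 28.5% lower, with a median of 0.15. XTH19 had 670.5 and 653 in water against 9.32 and 0.197 in dry seed (log2 change 6.48), and XTH16 had 508 and 563 against 6.64 and 3.74 (5.89). Pectin methylesterases set the charge and stiffness of pectin, and of 3 probe sets 2 passed the filter. ATPMEPCRB rose, with 38.0 and 154.7 in water against 0.757 and 2.88 in dry seed (3.84). Of the called genes, XTH16, XTH18, XTH19, XTH33 and ATPMEPCRB passed the filter through their level in imbibed seed, with dry means below it. Such selection favours rises, so these counts and the XTH median describe the probe sets that passed and not the gene families.

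In 30 µM ABA minus water, 0 of the 6 XTH genes and 0 of the 2 pectin methylesterases were called by limma. At an unadjusted p under 0.05 there were 3 XTH genes and 1 pectin methylesterase, all below water, against 8.48% of all probe sets in either direction. XTH18 changed by -1.42 (adjusted p = 0.446), XTH33 by -1.06 (0.457) and ATPMEPCRB by -1.71 (0.333), and for each of them water replicate B was more than 2 times as high as water replicate A. XTH16 had closer replicates, with 400.2 and 338 in 30 µM ABA against 508 and 563 in water, a change of -0.54 (adjusted p = 0.463). Whether expansins and these genes differed in their response to ABA was not tested. For the lists of endo-beta-mannanases, cellulose synthases, GASA peptides, arabinogalactan proteins, plasma membrane proton ATPases and regulators of expansin genes, no probe set of a single named gene was found in the tables used here.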

How the data were processed

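RNA from Arabidopsis seed was labelled with biotin and hybridised to single-colour arrays, per the labels. The deposited values are linear signal intensities, one a probe set on each array, and the submitters' processing notes name MAS5. The 2% trimmed mean of every array was 100.007 to 100.009, so the authors' scaling hides any difference in total messenger RNA. Precision is limited by how few arrays there were.

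Of 22810 probe sets, the 64 controls were left out of the fit. Gene names come from a platform annotation table, matched to RefSeq's genes (TAIR10.1). The labels and deposited files name no build of their own, so no coordinates are printed, and no sequences were used here. Values were taken as log2(signal + 3.99), where 3.99 is the 20th percentile of all signals. The 15922 probe sets whose mean exceeded 3.52 (30th percentile) were kept. One fit of group means over all 8 arrays (limma 3.58.1, R 4.3.3) left 4 residual degrees of freedom, and eBayes used a trend on intensity. Two-sided p-values were adjusted by Benjamini-Hochberg over every kept probe set, at a threshold of 0.05, and intervals are at 95%. Intervals are not adjusted for the number of genes. The fit was tested on simulated data. Members below the filter were taken from a fit without it.

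Every member is named. From other lists the 2 largest changes among those called in water minus dry seed are named, and those called in ABA minus water; XTH18, XTH33 and AT4G30380 were picked with their values known. For each called member the 3 nearest profiles outside the family are named. Members and lists were chosen with earlier results of these data known. Other pseudocounts, filters, scalings, moderation settings, a replicate block and each array left out were tried as alternatives.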

Additional observations from a re-analysis of the deposited data

Results flagged for a closer look

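Probe sets that the annotation gives to several expansin genes were outside the family as chosen by single symbols, and both showed signals in ABA above those on both water arrays. Only signals above water were looked for. Such a lack of overlap is common: 30.0% of the probe sets in the fit showed it for 3 µM ABA and water, in either direction. For 30 µM ABA and water it was 41.5%. The probe set shared by EXP26 and EXPA22 had 4.53 and 8.44 in 3 µM ABA (mean 6.49) against 0.436 and 0.269 in water, and 0.917 and 0.675 in 30 µM ABA (mean 0.796), with 0.429 and 0.948 in dry seed. The probe set shared by EXPA25 and EXPA23 had 2.01 and 4.04 in 3 µM ABA (mean 3.03) and 1.08 and 2.40 in 30 µM ABA (mean 1.74) against 0.614 and 0.754 in water, with 7.35 and 0.696 in dry seed. All 4 genes belong to the run of adjacent alpha-expansin genes. These signals are in the range of the members below the filter, and no level of background is known for them. With 2 arrays a group, no outlier within a group could be tested.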

How the results depend on the processing

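The count of called expansins in water minus dry seed was 8. It was 7 to 10 under the 18 alternatives other than spike-in scaling. The 10 came only when the filter was dropped and all 18 probe sets were tested. The share of 66.0% called over all probe sets belongs to the filtered fit and is no background for that 10. With the replicate block the count was 8 too, and 0 in each ABA minus water contrast. The labels do not say that A and B mark a shared batch. The A minus B differences correlated at 0.31 between water and 3 µM ABA, 0.23 between water and 30 µM ABA, and -0.08 to 0.09 in the other 4 pairs of groups, so pairing by letter is not established, and a source shared by some same-lettered arrays was not tested. Leaving out an array gave 7 to 8 calls. In the 3 contrasts of ABA with water, and between the ABA doses, 0 expansins were called under each of these 18 alternatives. In water minus dry seed the call of EXPA18 was lost under 4 of the 17 that tested it, and those of the other 7 expansins under none. With spike-in scaling the prior degrees of freedom were infinite, so its calls are left out of these counts. None of the 24 called changes took the opposite sign under any alternative, spike-in scaling included, whereas 36 of 53 changes that were not called did so at least once. In 30 µM ABA minus water EXPA15 ran between -0.21 and 0.64 when single arrays were left out, and EXLA1 between -0.67 and 0.32, so no direction is given for them. Signals below about 20 have no stated background limit, which limits what can be said of 11 of the 18 members, and of the size of the rise in those with dry signals that low. The cause of these shifts was not tested.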

Other observations

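Among the further loci that the RefSeq table names as expansin or expansin-like, AT4G30380, listed there with the synonym EXLB2, was the 1 with a probe set of a single gene. It had 11.7 on 3 µM ABA replicate A and 1.22 on replicate B. On the other 6 arrays it had 0.663 to 1.67. The 2 arrays in 3 µM ABA thus differ more for this probe set than any other pair of replicates does for it.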
